A study of Oncorhynchus mykiss with 28 samples.

Results

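The clones described here are rainbow trout cDNAs whose signal in unfertilized eggs ran in opposite directions with egg quality after the 2 kinds of controlled ovulation. Of 7865 clones with a value on all 28 arrays and outside the gene tables of the study, 150 were taken. Their Pearson correlation with the percentage of normal alevins was computed within the eggs of hormonally induced females (HI) and within those of photoperiod-manipulated females (PM). The 75 clones that most jointly rose with quality in HI eggs and fell with it in PM eggs are called the HI-rising set. The 75 that most jointly did the opposite are called the PM-rising set. The score of a clone is the smaller of its 2 opposed correlations.

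Each array held RNA pooled from the eggs of 1 female of an autumn-spawning strain, labelled with 33P and hybridised to cDNA clones spotted on nylon. The HI group had 10 females, given a GnRH analog in 2004. The PM group had 14 females of 2003 whose ovulation was advanced by an artificial photoperiod, and the N group had 4 females of 2003 that ovulated naturally. All HI arrays are thus of 1 year and all PM and N arrays of another, and the effect of the year cannot be told apart from that of the hormone. The labels give N replicate 1 and PM replicate 4 an identical female number. Normal alevins at yolk-sac resorption ranged between 2 and 95.4% in HI, between 0 and 93.8% in PM and between 95.9 and 98.8% in N females. No HI female lay between 39.8 and 89.5%. The HI correlations and slopes thus rest mainly on the contrast of 5 low-quality with 5 high-quality females. The HI replicate numbers skip from 5 to 7, and no array of the number between them is among the samples.

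An unfertilized fish egg is transcriptionally silent, and the mRNA that it holds accumulated in the oocyte during oogenesis. These maternal transcripts supply the proteins of the first cleavages until the genome of the embryo is switched on. A GnRH analog triggers the release of gonadotropin at the end of oogenesis, whereas a shifted photoperiod acts on the whole of the reproductive cycle. The level of a clone is given below as log2 signal after quantile normalization, on which 0 is close to the median clone of an array. It is a share of the array's signal, so fewer transcripts of a gene and a different amount of other RNA cannot be told apart.

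The files do not pair clones with genes, and none of the 150 clones carried a name in the sources used here. Clones are therefore given by their array identifiers, and the defining markers of oocytes and follicle cells could not be looked up. The prefixes 1RT and tc mark 2 families of cDNA libraries from which the clones were spotted, and the stem of an identifier is taken here as the culture plate of the clone. That reading is an assumption, since neither the labels nor the files state it, and all values by plate below rest on it.

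Opposite directions were the more frequent case over all candidate clones, not only in the 2 sets. Of the 7865 candidates, 2437 (30.99%) had a positive correlation in HI eggs and a negative one in PM eggs. A further 2228 (28.33%) had the reverse, whereas 1523 (19.36%) were positive in both groups and 1677 (21.32%) negative in both. Where both correlations were beyond 0.5 in size, 116 clones were positive in HI and negative in PM, 79 the reverse, 20 positive in both and 12 negative in both. Across clones the 2 correlations were themselves related with r = -0.26, as a description over clones that share the same 24 arrays.

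**Figure D1:**
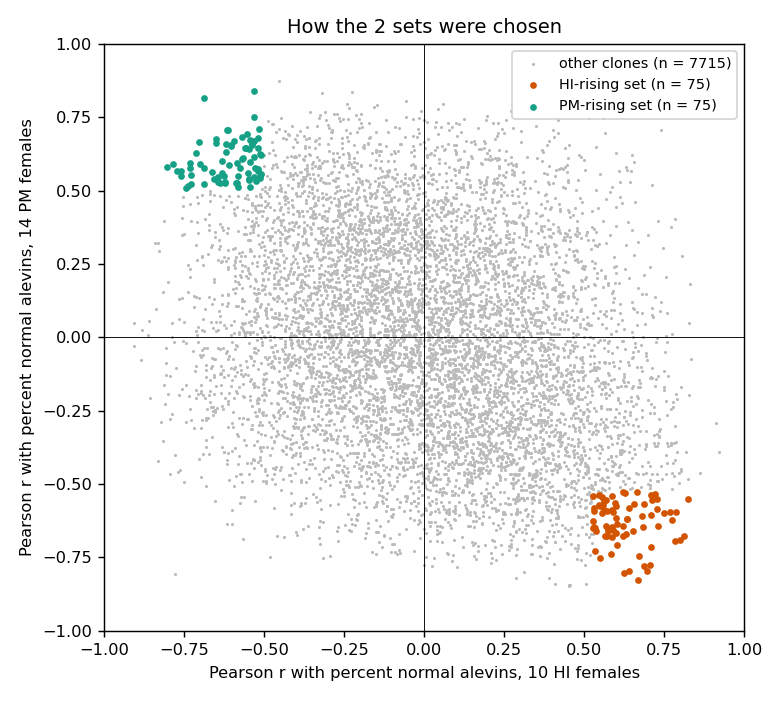
Pearson correlation of log2 signal with percent normal alevins for each candidate clone, within 10 HI females on the horizontal axis and within 14 PM females on the vertical axis. The HI-rising set (75 clones) fills the lower right corner and the PM-rising set (75 clones) the upper left corner, and neither is separated by a gap from the other candidates, drawn in grey.

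The limits of both sets fell within a continuum. In the HI-rising set the highest score was 0.71, the last clone inside had 0.527 and the first outside 0.526. In the PM-rising set these scores were 0.69, 0.508 and 0.506. Within the HI-rising set the median correlation was 0.60 in HI eggs and -0.62 in PM eggs. The PM-rising set had medians of -0.59 in HI eggs and 0.59 in PM eggs. These values chose the members and are given as a description without a test.

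The clone tcba0020.h.23 had the highest score of the HI-rising set, with r = 0.71 in HI eggs and -0.72 in PM eggs. Its log2 signal was -0.33, -0.27, -0.19, -0.06 and 0.20 in the 5 HI females with under 50% normal alevins, against -0.11, 0.16, 0.17, 0.21 and 0.36 in the 5 HI females above 50%. Among PM females it was between 0.16 and 0.48 (median 0.41) in the 9 females under 50%, against -0.14, -0.10, -0.04, -0.0014 and 0.41 in the 5 females above. Low- and high-quality females overlapped in both groups, through 1 low and 1 high female in HI eggs and through 1 high female in PM eggs. The 4 N females had -0.04, -0.03, 0.20 and 0.43, and thus covered most of the range of the clone.

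The clone tcay0013.p.09 was second in the HI-rising set and was a dim spot, with r = 0.70 in HI eggs and -0.78 in PM eggs. Its log2 signal was -1.58, -1.54, -1.41, -1.38 and -1.31 in the HI females under 50%, against -1.29, -1.26, -1.20, -1.09 and -0.99 in those above. The low- and high-quality HI females did not overlap, although the nearest values of each were close. In PM eggs the clone was between -1.24 and -0.95 (median -1.11) under 50%, against -1.62, -1.42, -1.36, -1.31 and -1.15 above, and 1 high-quality PM female lay within the low-quality range. The N females lay close together, at -1.38, -1.34, -1.29 and -1.25.

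The clone 1RT88F05_B_C03 led the PM-rising set, with r = -0.69 in HI eggs and 0.82 in PM eggs. Its log2 signal was -0.51, -0.41, -0.28, -0.27 and -0.27 in the HI females under 50%, against -0.86, -0.60, -0.59, -0.51 and -0.41 in those above. Among PM females it was between -0.73 and -0.39 (median -0.63) under 50%, against -0.51, -0.28, -0.24, -0.22 and -0.02 above. Low-quality HI eggs and high-quality PM eggs were thus the brighter ones, with an overlap in each group. The N females had -0.60, -0.51, -0.33 and -0.33.

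The clone 1RT148G07_A_D04 was second in the PM-rising set, with r = -0.71 in HI eggs and 0.66 in PM eggs. Its log2 signal was -0.57, -0.53, -0.52, -0.30 and 0.09 in the HI females under 50%, against -0.97, -0.74, -0.65, -0.55 and -0.46 in those above. The value of 0.09 belonged to HI replicate 1, which had 2% normal alevins, and without that female the correlation in HI eggs was -0.54. In PM eggs the signal was between -0.86 and -0.38 (median -0.67) under 50%, against -0.55, -0.47, -0.43, -0.31 and -0.22 above, with overlap. The N females had -0.60, -0.59, -0.54 and -0.50.

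**Figure D2:**
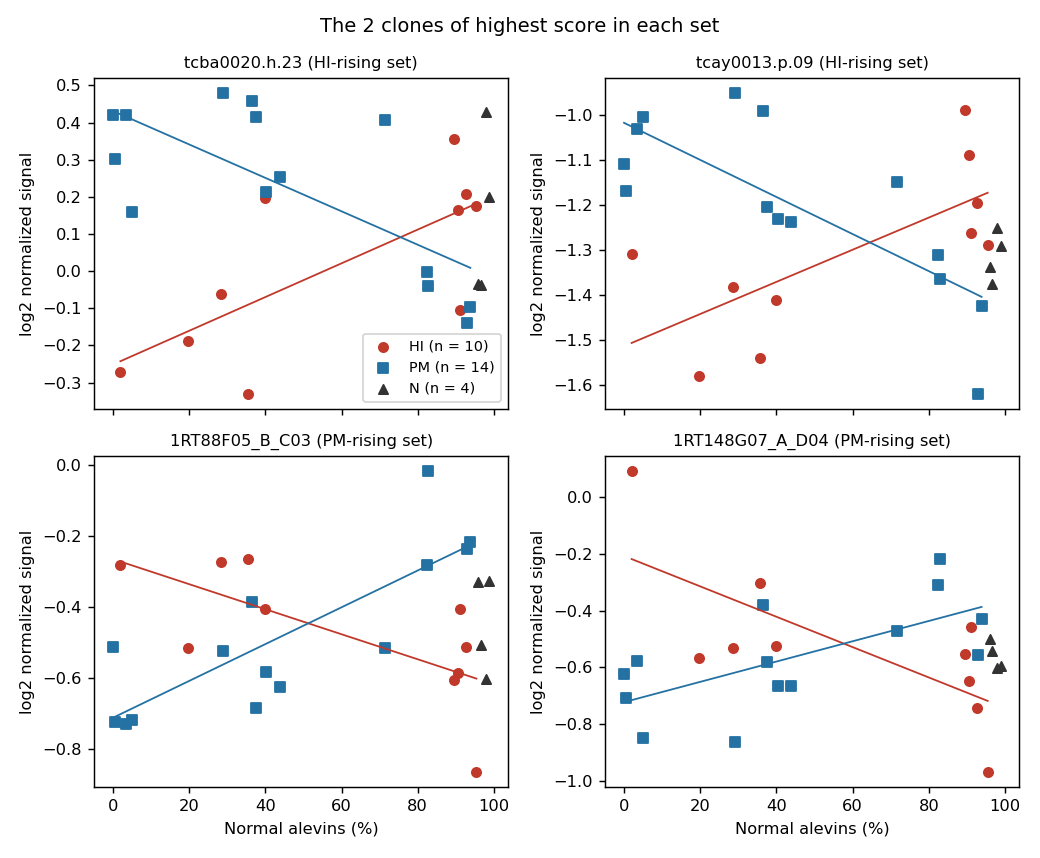
Log2 normalized signal of the 2 clones of highest score in each set against percent normal alevins, 1 point per female, with a least-squares line within HI (red circles) and PM (blue squares) eggs and the 4 N females as black triangles. The HI and PM lines cross in every panel, and the N females stand at the right-hand end between or beside them.

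The changes behind the correlations were small. In the HI-rising set the low-quality minus high-quality difference had a median of -0.26 in HI eggs, with a range of -0.63 to -0.10, and a median of 0.28 in PM eggs, with a range of 0.12 to 0.91. In the PM-rising set the medians were 0.22 in HI eggs (0.09 to 0.40) and -0.25 in PM eggs (-0.54 to -0.10). Expressed per 10 percentage points of normal alevins, the median slope was 0.039 in HI and -0.041 in PM eggs for the HI-rising set, and -0.035 in HI and 0.036 in PM eggs for the PM-rising set.

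Few single clones separated the low- from the high-quality females of a group. In HI eggs, 2 of the 75 HI-rising clones were lower in every low-quality than in every high-quality female, beside 24 of all 7865 candidates (0.305%). In the PM-rising set 4 clones were higher in every low-quality HI female, beside 27 candidates (0.343%). In PM eggs, 12 HI-rising clones were higher in every low-quality female, beside 38 candidates (0.483%), and no PM-rising clone was lower in every low-quality female, beside 16 candidates (0.203%). No candidate did so in opposite directions in both groups (0%). The rule used the same contrast, so nothing is read from these counts.

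Over all clones the difference between the HI and PM slopes did not pass the test. With a slope for each group in 1 limma fit, 0 of 7915 complete clones (0%) had a Benjamini-Hochberg adjusted p under 0.05, the lowest adjusted p was 0.154, and 1086 clones had an unadjusted p under 0.05. Within HI eggs alone 0 clones passed and 525 had an unadjusted p under 0.05. Within PM eggs 0 passed and 1052 had an unadjusted p under 0.05. No clone was thus called as having different trends in the 2 groups at this number of females. The rule used this contrast to choose the members, so the counts are over all clones and nothing is read for the members.

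The 75 HI-rising clones were chosen for their trends on these HI and PM arrays, so the direction of their mean was fixed by the rule. The mean log2 signal is given array by array as a description. It was -0.25, 0.03, 0.04, -0.14 and 0.16 in HI replicates 1 to 5, the low-quality females, against 0.21, 0.26, 0.16, 0.28 and 0.22 in HI replicates 7 to 11. In PM eggs it lay between 0.20 and 0.44 (median 0.30) in the 9 low-quality females, against 0.15, -0.03, 0.03, -0.10 and -0.09 in PM replicates 10 to 14. Low-quality PM eggs and high-quality HI eggs thus shared the upper part of the range. The N females, whose arrays were not used in the correlations of the rule, had 0.12, -0.02, 0.26 and 0.0033 in replicates 1 to 4.

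The direction of the mean of the 75 PM-rising clones was likewise fixed by the rule. This mean was 0.31, 0.03, 0.07, 0.12 and 0.04 in the low-quality HI females, against -0.12, -0.15, -0.01, -0.08 and -0.20 in the high-quality ones. In PM eggs it lay between -0.24 and 0.02 (median -0.16) in the low-quality females, against -0.05, 0.23, 0.21, 0.09 and 0.14 in the high-quality ones. The N females had -0.05, 0.09, -0.07 and 0.19. HI replicate 1 was the extreme array of the HI group for both sets, and without it the low-quality HI means ran between -0.14 and 0.16 for the HI-rising and between 0.03 and 0.12 for the PM-rising set.

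**Figure D3:**
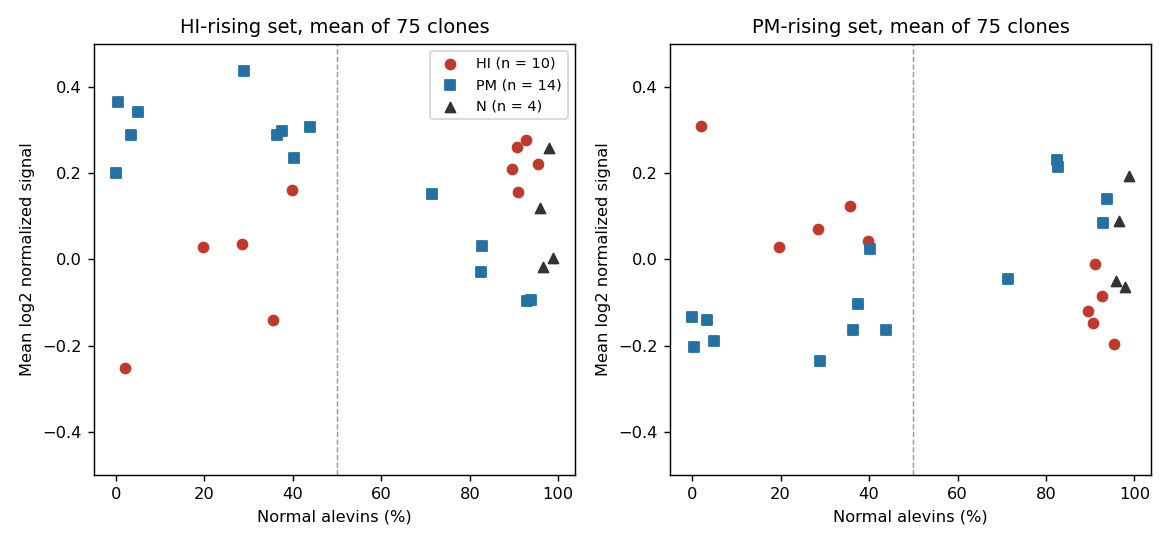
Mean log2 normalized signal of the 75 HI-rising clones (left) and of the 75 PM-rising clones (right) against percent normal alevins, 1 point per female, with the 50% limit dashed. HI females (red circles) climb in the left panel and descend in the right one, and PM females (blue squares) do the opposite. The clones were chosen for these directions. The 4 N females (black triangles) spread over -0.02 to 0.26 on the left and -0.07 to 0.19 on the right.

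Low quality covered unlike failures, in a different mix in the 2 groups. Low-quality HI females had between 3 and 89% eyed embryos (median 77%) and up to 55.6% malformed alevins. Low-quality PM females had between 0 and 98% eyed embryos (median 39%) and up to 50% malformed alevins. Eyed embryos were 3% in HI replicate 1 and 0, 6, 6 and 8% in PM replicates 1 to 4. The 55.6% malformed was from HI replicate 3, which had 89% eyed embryos. The 50% was from PM replicate 2, with 6% eyed embryos and 0.5% normal alevins, and thus rests on few survivors. With the percentage of eyed embryos, an earlier stage, all 75 HI-rising clones kept a positive correlation in HI eggs (median 0.55) and a negative one in PM eggs (median -0.50). All 75 PM-rising clones likewise stayed negative in HI eggs (median -0.57) and positive in PM eggs (median 0.52). Eyed embryos and normal alevins of a female are not independent measures. PM replicate 13 is listed with 92.9% normal alevins but 89% eyed embryos, an order that the labels leave unexplained. With the percentage of malformed alevins the order was less uniform in HI eggs, where 68 of 75 HI-rising clones were negative (median -0.23) and 55 of 75 PM-rising clones positive (median 0.19). In PM eggs 74 of 75 HI-rising clones were positive (median 0.40) and 75 of 75 PM-rising clones negative (median -0.41). PM replicate 1 had no value for malformed alevins and was left out there. PM replicates 2 and 4, with the highest malformed percentages of the PM group (50 and 25%), had only 6 and 8% eyed embryos. Normal alevins were calculated from survival and malformation, so malformed alevins are not an independent measure either, and the counts are a description.

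The N eggs were all of high quality and were not used in the correlations that chose the members. Their arrays entered the choice only through the quantile normalization and the need for a value on all 28 arrays. The mean of the N eggs lay between the means of the high-quality HI and the high-quality PM eggs for 50 of 75 HI-rising clones (66.7%) and 45 of 75 PM-rising clones (60%), against 3087 of 7865 candidates (39.2%). The members were chosen on trends that set these HI and PM means apart, so the share is given as a description. The high-quality HI minus high-quality PM difference had a median of 0.18 in the HI-rising and -0.25 in the PM-rising set, and the N mean was nearer to the PM mean for 40 (53.3%) and 43 (57.3%) clones of 75, against 4427 (56.3%) of the candidates.

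The 2 sets differed in the libraries that their clones came from, which the rule did not use. The HI-rising set had 70 tc clones and 5 1RT clones (6.67%), and the PM-rising set 21 tc clones and 54 1RT clones (72%), against 36.1% 1RT clones among the candidates. The tc clones of the HI-rising set included 29 tcbk clones (38.7% of the set, 22.3% of the candidates) and 15 tcay clones (20% of the set, 16.6% of the candidates). A further 10 were tcad clones (13.3% of the set, 5.61% of the candidates). These shares are over the whole set and all candidates, 1RT clones included, and not within the tc family. They thus also carry the low share of 1RT clones in the set. The median signal level was -0.06 in the HI-rising set, -0.14 in the PM-rising set and -0.09 among the candidates. By library it was 0.23 among the 1RT clones outside the sets and -0.28 among the tc clones outside them, so the mostly tc HI-rising set lay above the other tc clones and the mostly 1RT PM-rising set below the other 1RT clones.

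The clones left out of both sets had the same lean by library, at a smaller size. The 2783 other 1RT clones had a median correlation of -0.12 in HI and 0.12 in PM eggs, and the 4932 other tc clones one of 0.07 in HI and -0.10 in PM eggs. The median 1RT minus median tc signal of these non-members was between 0.42 and 0.68 (mean 0.58) in low-quality HI eggs and between 0.40 and 0.67 (mean 0.54) in high-quality HI eggs. In PM eggs it was between 0.40 and 0.52 (mean 0.45) in the low-quality and between 0.50 and 0.72 (mean 0.57) in the high-quality females. In the N eggs the offset was 0.51, 0.71, 0.41 and 0.61 in replicates 1 to 4, and thus covered nearly the whole range of the other groups. The part of the library offset in the trends of the members was not tested.

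The same lean was seen plate by plate. The candidates came from 328 culture plates, of which 295 held at least 10 non-members. The median correlation of the non-members was positive in HI and negative in PM eggs on 117 of these plates, the reverse on 111, and of the same direction in both groups on 67. Across the 295 plates the 2 medians were related with r = -0.71, as a description, since clones of a plate share the arrays and possibly a place on the membrane. Members were spread over many plates, the HI-rising ones over 57 with at most 3 on a plate, and the PM-rising ones over 51 with at most 4.

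The plate with 4 PM-rising clones was 1RT58, whose 19 other clones had a median correlation of -0.42 in HI and 0.36 in PM eggs. The plate of tcay0013.p.09 had medians of 0.33 in HI and -0.35 in PM eggs over its 32 other clones, and that of 1RT88F05_B_C03 had -0.37 in HI and 0.34 in PM eggs over 13. In all, 63 of 75 HI-rising clones and 59 of 73 PM-rising clones on plates of that size sat among non-members whose medians had the directions of the set in both groups. By plate, 117 and 111 of the 295 had these directions. The share by clone over all candidates was not counted. The members were chosen for these directions, so nothing is read from their counts.

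**Figure D4:**
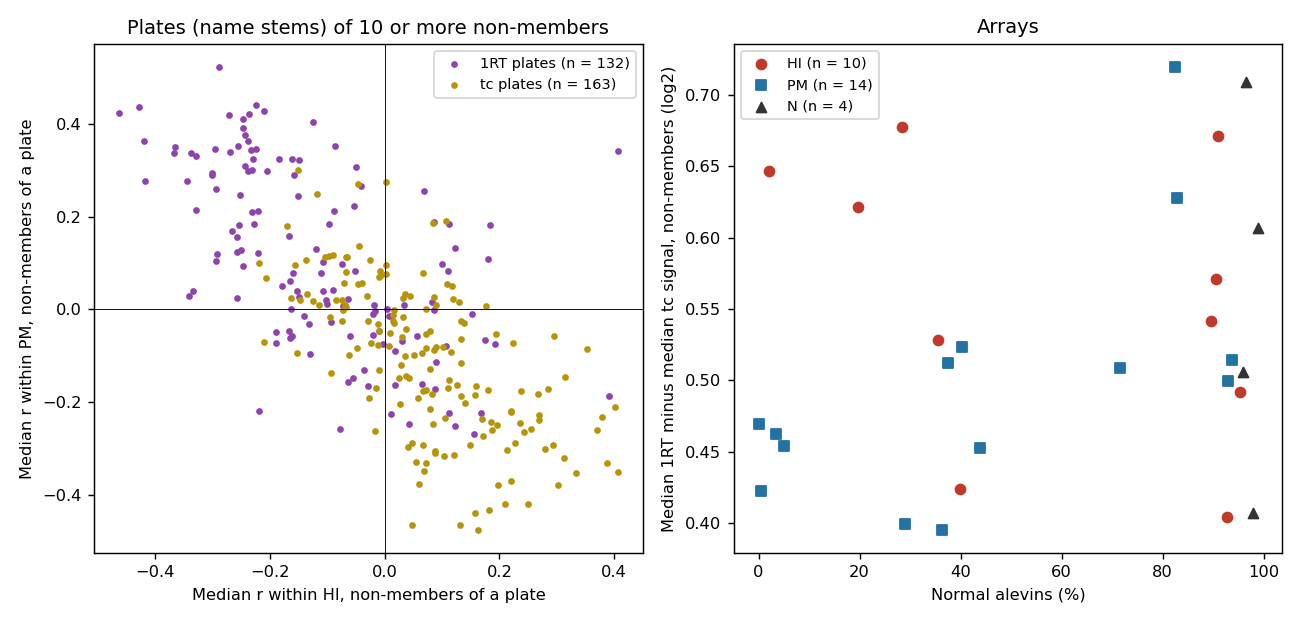
Left, the median correlation with percent normal alevins of the non-members of each plate, within HI (horizontal) and within PM eggs (vertical), for 1RT plates in purple and tc plates in yellow. Right, the median 1RT minus median tc log2 signal of non-members of each array against percent normal alevins, where HI arrays (red circles) lie between 0.40 and 0.68, PM arrays (blue squares) between 0.40 and 0.72 and N arrays (black triangles) between 0.41 and 0.71.

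With the median of each library removed from every array, all members kept their directions. The median correlation was then 0.60 in HI and -0.56 in PM eggs for the HI-rising set, and -0.56 in HI and 0.57 in PM eggs for the PM-rising set. With the median of each plate removed, it was 0.52 in HI and -0.48 in PM eggs for the HI-rising set, of which 2 clones changed direction in PM eggs. For the PM-rising set it was -0.38 in HI and 0.45 in PM eggs, and 5 clones changed direction in HI and 3 in PM eggs. The members were chosen for large correlations of these signs on the same arrays, so nothing is read from the directions kept. When the rule itself was applied after the removal of library medians, 44 of the 75 HI-rising and 41 of the 75 PM-rising clones were chosen again. The new HI-rising and PM-rising sets held 35 and 20 1RT clones, against 5 and 54 in the original ones, so the order of the 2 sets by 1RT clones was reversed. After the removal of plate medians 27 and 15 were chosen again. Among the 4 clones described above, the correlation of tcay0013.p.09 was then 0.09 in HI and -0.30 in PM eggs, that of 1RT88F05_B_C03 was -0.30 in HI and 0.47 in PM eggs, and that of 1RT148G07_A_D04 was 0.21 in PM eggs.

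The spread and the coverage of the arrays were compared between low- and high-quality females by two-sided exact permutation tests, 4 in all. The interquartile range of log2 signal averaged 1.45 ± 0.07 in low-quality and 1.43 ± 0.08 in high-quality HI eggs (SD, n = 5 each, exact p = 0.643, adjusted p = 0.857). It averaged 1.62 ± 0.11 in low-quality PM eggs (n = 9) and 1.54 ± 0.08 in high-quality PM eggs (SD, n = 5, exact p = 0.191, adjusted p = 0.763). The number of clones with a value above 0 was between 8229 and 8527 in low-quality and between 8243 and 8547 in high-quality HI eggs (exact p = 0.944, adjusted p = 0.944). It was between 8146 and 8594 in low-quality and between 8307 and 8655 in high-quality PM eggs (exact p = 0.485, adjusted p = 0.857). The smallest p that the design allows was 0.00794 in HI and 0.0005 in PM eggs.

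The members were also compared between the treatments, in a fit of the 3 group means that does not hold egg quality fixed. Over all 7915 complete clones 232 (2.93%) differed between HI and PM eggs, 77 of them higher and 155 lower in HI eggs (limma, Benjamini-Hochberg adjusted p under 0.05). In the HI-rising set 2 of 75 clones were called, both lower in HI eggs, where 1.96% of all clones were lower and 0.973% higher, and in the PM-rising set 0 of 75. The counts of called members were near the background shares. At an unadjusted p under 0.05 the counts were 19 in the HI-rising set (25.33%), 10 in the PM-rising set (13.33%) and 1621 (20.48%) over all clones. There the HI-rising share lay above and the PM-rising share below that of all clones, a difference that was not tested.

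The clone tcay0011.h.10 of the HI-rising set had a log2 signal between -0.28 and 0.98 (median 0.18) in HI eggs, against between 0.29 and 1.35 (median 0.64) in PM eggs. Its difference HI minus PM was -0.50 (SE 0.14, limma adjusted p = 0.0445), and the 2 groups overlapped. The N females had 0.16, 0.75, 0.78 and 0.84. The clone tcbk0009.a.06 had between -0.74 and 0.02 (median -0.25) in HI eggs, against between -0.28 and 0.20 (median -0.03) in PM eggs. Its difference was -0.26 (SE 0.07, limma adjusted p = 0.0475), also with overlap, and the N females had -0.35, -0.29, -0.28 and -0.07. Both calls stood near the limit. With each array's interquartile range added as a covariate, the differences were -0.26 and -0.22, with limma adjusted p = 0.74 and 0.531. That range itself averaged 1.44 in HI and 1.59 in PM arrays, so the covariate can take up part of the difference between the groups. With plate medians removed the difference of tcbk0009.a.06 was -0.12 (limma adjusted p = 0.398). Leaving out 1 array ended the call of tcay0011.h.10 for 15 of 28 arrays and that of tcbk0009.a.06 for 19 of 28.

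As a set, the HI-rising clones had a median difference HI minus PM of -0.11, with 60 of 75 below 0, and the PM-rising clones one of 0.04, with 47 of 75 above 0, beside a median of -0.0076 over all clones. Low-quality females made up 5 of 10 in the HI group and 9 of 14 in the PM group. The group means can thus carry the trends that chose the members. The part of those trends in the shifts was not tested. Between HI and N eggs 1 of 7915 clones was called (0.0126%), lower in HI eggs, and 0 members. At an unadjusted p under 0.05 the counts were 3 HI-rising clones (4%), 5 PM-rising clones (6.67%) and 570 of all clones (7.2%). Between PM and N eggs 0 clones were called (0%), and 0 members. At an unadjusted p under 0.05 the counts were 7 HI-rising clones (9.33%), 7 PM-rising clones (9.33%) and 561 of all clones (7.09%). The median difference HI minus N was 0.0037 in the HI-rising set, with 39 of 75 above 0. It was -0.04 in the PM-rising set, with 48 of 75 below 0, beside -0.01 over all clones, of which 3690 lay above and 4225 below 0. The median difference PM minus N was 0.08 in the HI-rising set, with 63 of 75 above 0, and -0.05 in the PM-rising set, with 56 of 75 below 0, beside 0.0015 over all clones, of which 3997 lay above and 3918 below 0. All N females were of high quality. The part of the trends that chose the members in the shifts against N eggs was likewise not tested. The HI and PM comparisons share the same 4 N arrays. The PM-rising clone tcay0028.p.24, singled out after its values were seen, lay far from the rest of its set against N eggs. It averaged 0.98 ± 0.29 in HI eggs (SD, n = 10), 0.95 ± 0.23 in PM eggs (SD, n = 14) and 2.07 ± 2.58 in N eggs (SD, n = 4). The spread among the N females was thus larger than its differences of -1.09 for HI minus N and -1.12 for PM minus N (limma adjusted p = 0.643 and 0.668).

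**Figure D5:**
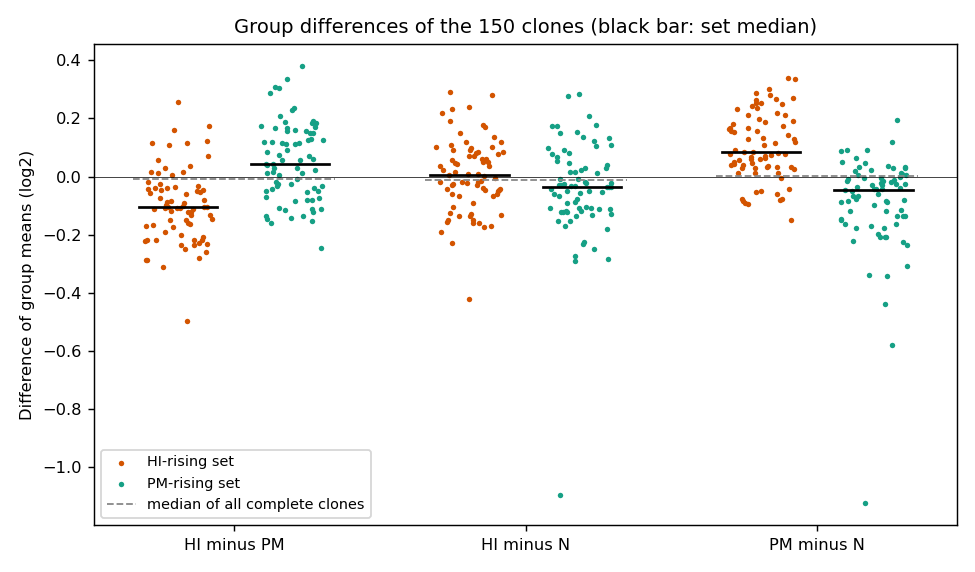
Difference of group means in log2 signal for each clone of the HI-rising (orange) and PM-rising (green) sets, with set medians as black bars and the median of all complete clones dashed. The set medians lie between -0.11 and 0.08, and the lone green points near -1.1 are the clone tcay0028.p.24, whose N females spread widely.

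Clones with a gene name, which the rule had left out, offered no member by the same measure. Of the 57 clones in the gene tables of the study 50 were complete, and 16 of them (32%) had opposite directions, 9 in the HI-rising and 7 in the PM-rising sense, beside 59.3% of the candidates. None reached the limit of its set. These genes were chosen by the study on the same samples. The nearest was HCFC1, a transcriptional coregulator known in mammals for its part in the cell cycle, with r = 0.70 in HI and -0.51 in PM eggs and a score of 0.514. Its log2 signal was -0.38, -0.28, -0.15, -0.04 and 0.05 in low-quality HI eggs, against -0.16, 0.06, 0.19, 0.27 and 0.30 in high-quality ones. In the PM group it was between -0.13 and 0.22 (median 0.05) in the low-quality females, against -0.24, -0.16, -0.10, -0.07 and -0.0049 in the high-quality ones, and low- and high-quality females overlapped in both groups.

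HSPA9B, a chaperone of the mitochondrial matrix, came next with r = 0.48 in HI and -0.54 in PM eggs. Its log2 signal was 1.25, 1.40, 1.46, 1.55 and 2.09 in low-quality HI eggs, against 1.54, 1.62, 1.64, 1.83 and 1.88 in high-quality ones, and the brightest HI female was a low-quality one. In the PM group it was between 1.89 and 2.38 (median 2.32) in low-quality females, against 1.81, 1.85, 1.92, 2.02 and 2.11 in high-quality ones. APOB, the structural apolipoprotein of low-density lipoproteins, was the nearest to the PM-rising set, with r = -0.36 in HI and 0.77 in PM eggs. It was between -0.68 and -0.02 (median -0.38) in low-quality PM eggs, against -0.20, 0.17, 0.41, 0.48 and 0.81 in high-quality ones. In HI eggs it was -0.33, 0.07, 0.12, 0.43 and 0.77 in low-quality females, against -0.13, 0.09, 0.11, 0.15 and 0.32 in high-quality ones, which all lay within the low-quality range. DDAH2, which breaks down methylated arginines that inhibit nitric oxide synthase, had r = -0.51 in HI and 0.27 in PM eggs. PGH2, a prostaglandin synthase known in fish for its part in ovulation, had r = 0.40 in HI and -0.28 in PM eggs. In low-quality PM eggs it was between 0.81 and 1.42 (median 1.20). The high-quality PM females had 0.40, 1.05, 1.20, 1.21 and 1.22, of which only the 0.40 lay outside the low-quality range.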

How the data were processed

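The deposited values are linear intensities, which the authors had corrected for the DNA in each spot and scaled to the array median, and the values above 0 had a median of 1 on every array. Rows that named no clone (193 of 9216) were left out. Zeros, 6.59% of the clone values, were taken as missing, and 7915 of 9023 clones had none. These were log2-transformed without a pseudocount and quantile normalized, and the 57 clones of the gene tables were set aside. The members and lists were chosen with earlier results of these data known. Groups and slopes were fitted with limma 3.58.1 in R 4.3.3 over all 7915 clones. In simulated data limma recovered 86% of 200 clones changed by 0.5 for HI against PM, 45.5% for HI against N and 52.5% for PM against N. The noise was drawn independently for each clone, without shifts shared by a library or plate. The set medians of the members, between -0.11 and 0.08, were far smaller than 0.5, so these shares do not apply to them. No recovery was simulated for the slopes. Other computations used Python 3.11.15 with pandas 2.3.3 and scipy 1.17.1. Females were treated as separate animals, although the labels give N replicate 1 and PM replicate 4 an identical female number. The number of females limits the precision.

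The clones to be named were the 6 of highest score in each set, those at the limits and those called between groups. Since the files do not pair clones with genes, identifiers are printed for the first 2 of each set and for the 2 clones called, and the gene lists prepared had no member. Low- and high-quality females were divided at 50% normal alevins. No clone sequence was used here. Samples were grouped by their labels, and their numbers rank females within a group by quality. Same-numbered samples of HI and PM did not deviate together (r between -0.23 and 0.22, above 0.1 in 2 of 10 pairs), so the numbers do not pair them.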

Additional observations from a re-analysis of the deposited data

Results flagged for a closer look

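For tcay0011.h.10 the value of N replicate 2, 0.155, stood apart from the other 3 N females, of which the nearest had 0.749. The 8 measures tested in the HI and N groups (the 2 set means and the 6 clones named) gave 16 groups of values, and this was the only one with such a gap. Chance flags about 1 in 20.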

How the results depend on the processing

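The membership of both sets depended on the processing. Of the 75 HI-rising and 75 PM-rising clones, 42 and 49 were chosen again on the deposited values without quantile normalization, 62 and 62 after scaling to the median absolute deviation, 43 and 43 with Spearman's rho, and 25 and 27 with eyed embryos in place of normal alevins. Leaving out 1 array left 37 to 73 HI-rising and 38 to 74 PM-rising clones, with the lowest counts without HI replicate 1. Removing library medians left 44 and 41, and removing plate medians 27 and 15, 2 alternatives chosen after seeing the data.

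The count of members called between HI and PM eggs, 2 in the report beside 2.93% of all clones, moved with the share of all clones called in several settings. It was 6 on deposited values (5.94% of all clones), 6 with all clones of at least 20 values (5.81%), 14 with array weights (7.83%) and 0 with the interquartile range as a covariate (0.0126%). Another fit added a slope on percent normal alevins in each of HI and PM eggs, the trends that chose the members. Compared at 50% normal alevins, it gave a count of 7 (2.6% of all clones). The count was 1 each with robust variance (2.86%), with HI and PM arrays only (3.42%), with library medians removed (2.88%) and with plate medians removed (3.57%). It was 0 to 4 when 1 array was left out, and 0 for 14 of 28 arrays. With the replicate number as a block it was 1 (1.2% of all clones), although the numbers do not pair the females. The cause was not tested. No member was called against N eggs, and no clone for the slope difference, under any of the alternatives run.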
